A study of Homo sapiens with 4 samples.

Results

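Axon guidance ligands and receptors are the semaphorins with their plexin and neuropilin receptors, the ephrins with their Eph receptors, the Slits with their Robo receptors, and the netrins with their UNC5 receptors. They were taken by gene symbol alone, and 69 of the 19734 gene rows of the deposited table carried such a symbol. Of these, 30 had a mean of at least 5 over all libraries and are described singly, against 9324 genes of the whole table at that level. One of the 69 rows, UNC5CL, matches by spelling only and is not a netrin receptor; it lay under that level.

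The RNA came from BE(2)C:MYCN-ORF cells, a human neuroblastoma line that carries an introduced MYCN open reading frame in every group, including the controls. The siRNA was a control (siCon) or was directed at MYCN (siMYCN), each was given with a control microRNA mimic (miRCon) or with let-7a, and polyA RNA was taken 48 hours later. Each of the 4 combinations is a single library (1 per group), without replicates, and nothing checks a difference between single libraries. The deposited values were turned back from natural logs to a scale called TPM-like here because each library sums to nearly the same total (855811 to 862049). Scaling by transcript length is assumed and not given in the sources used here, and the comparisons of levels between genes and the family sums rest on it. Such values keep no read depth, so the depth is unknown. Throughout, values for 4 libraries are given in the order siCon with miRCon, siCon with let-7a, siMYCN with miRCon, siMYCN with let-7a.

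Guidance proteins steer growing axons and migrating neural crest cells, the cells from which neuroblastoma arises, by attracting or repelling them. Secreted class 3 semaphorins bind neuropilins, which hold no signalling domain of their own and pass the signal through plexins. Ephrins are bound to the membrane and signal both into the cell with the Eph receptor, a tyrosine kinase, and back into their own cell. UNC5 receptors mediate repulsion by netrin and are dependence receptors, which can start cell death when their ligand is missing.

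Facts of the libraries bear on what follows. All 10 noradrenergic neuroblastoma markers were at a mean of at least 5, and their summed level was 2686, 2996, 2379 and 3247. Of 8 mesenchymal-like or fibroblast markers 5 were also at that level, with sums of 272.8, 250.7, 295.5 and 244.7, led by the matrix protein LUM, while COL1A2 and PRRX1 had means under 0.5. The sums of the 4 epithelial, 4 endothelial and 4 blood markers reached at most 7.77, 1.81 and 0.351, and all 4 blood markers had means under 0.5. The 4 Schwann or glial markers summed to 6.63, 10.1, 14.4 and 14.7, with S100B at a mean of 5.67, and were higher in both siMYCN libraries. The mitochondrially encoded share was 31.6% and 32.1% with siCon and 28.4% and 29.3% with siMYCN, and these ranges do not overlap. Both measures move with each siMYCN difference given below, and their part in them was not tested. MYCN itself was at 1449, 1433, 1238 and 1197, which is a change with siMYCN of -14.5% with miRCon and -16.4% with let-7a (adjusted p = 0.0584 by limma). LIN28B, a let-7 target, was at 157, 96.5, 119 and 55.5. In bulk RNA, fewer cells of a type and less RNA per cell cannot be told apart.

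The let-7a mimic recognises messages by its seed, and 9 of the 30 members (30%) held a match to it in their longest 3' UTR, against 19.0% of the 8914 genes at that level with an annotated 3' UTR. Longer 3' UTRs have more places for a match, and neither these shares nor those by kind of match below were matched for length. The sequences show the mimic's mature strand as RefSeq gives it (GRCh38.p14, chr9:94175962-94175983, plus strand), with the seed, bases 2 to 8, in capitals, and then the members with the longer matches, with the match in capitals.
let-7a-5p: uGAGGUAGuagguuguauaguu
NRP2, 8mer: caagaagtgtcCTACCTCAgctgaagatgg
PLXND1, 8mer: gcccagaaactCTACCTCAtccacactggt
SEMA4C, 8mer: acaggcaccagCTACCTCAgggacatggca
EPHB2, 7mer-m8: agccaaggagaCTACCTCtcgggaccttt
PLXNA2, 7mer-m8: tgcttgctgtcCTACCTCtctccacagca
SEMA3F, 7mer-m8: gccaccccactCTACCTCcttagctttcc
UNC5A, 7mer-m8: tgcgtgtgatgCTACCTCtcctcccgtcc

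An 8mer pairs with the whole seed and has an A after it, a 7mer-m8 lacks that A, and a 7mer-A1 lacks the pairing to the last seed base. By GENCODE release 29 on GRCh38, the matches lie at chr2:205778465-205778472 (plus strand, NRP2), chr3:129555904-129555911 (minus, PLXND1), chr2:96860552-96860559 (minus, SEMA4C), chr1:22915843-22915849 (plus, EPHB2), chr1:208023984-208023990 (minus, PLXNA2), chr3:50188769-50188775 (plus, SEMA3F) and chr5:176880182-176880188 (plus, UNC5A), all in 3' UTR exons. The other 2 matches are 7mer-A1 sites in EPHA2 and SEMA3A. An 8mer was present in 3 members (10%) and in 4.42% of all those genes, and a best match of the 7mer-m8 kind in 4 members (13.3%) and in 7.12%. In the 3' UTR that belongs to the longest coding sequence, NRP2 has no match, so its match belongs to another transcript's 3' UTR.

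Receptors made up most of the guidance RNA. The highest single level was that of UNC5B, at 105, 108, 145 and 179, followed by SLIT3, a secreted repellent, at 100.4, 100.9, 83.6 and 69.8. The plexins PLXND1, PLXNB2 and PLXNA1 and the netrin receptor UNC5C came next, with means of 86.1, 76.0, 70.0 and 82.1. The ranges of these 4 genes and of SLIT3 over the libraries overlap, so their order is not fixed. EFNB1 (mean 56.4), UNC5A (38.1), EPHB3 (28.996), SEMA6A (28.4) and SEMA3F (25.9) followed. At the lower end, PLXNA2 had the smallest mean inside the limit, 6.06, and SEMA3D, a secreted semaphorin, the largest outside it, 4.54. Of the 39 members under the limit, 14 had a mean between 1 and 5, 22 were lower but above 0 somewhere, and 3 were listed at 0 in every library.

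**Figure D1:**
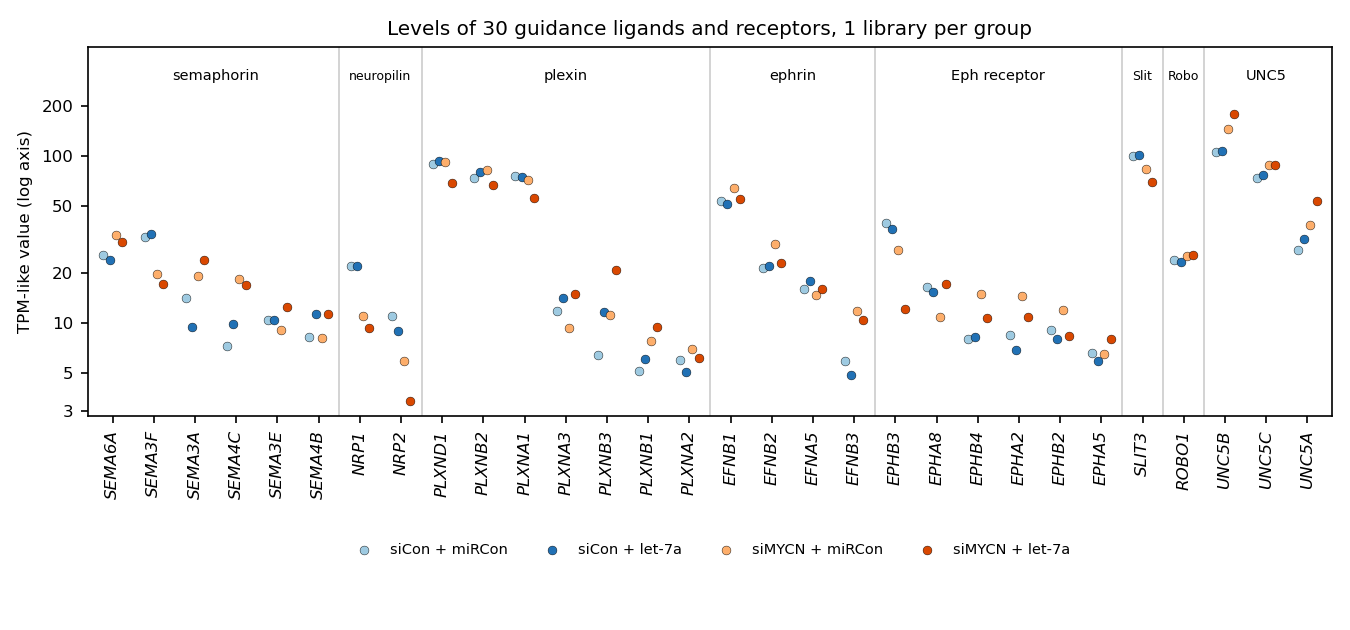
TPM-like values (log axis) of the 30 guidance genes with a mean of at least 5, grouped by family, with 1 point per library. UNC5B is highest in all libraries; both siMYCN points lie below both siCon points for NRP1, NRP2 and SEMA3F and above them for UNC5B.

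Families differed in how many of their genes were detected at this level. Both neuropilins, 7 of 9 plexins and 3 of 5 UNC5 rows passed, as did 6 of 14 Eph receptors, 4 of 8 ephrins and 6 of 20 semaphorins. Only SLIT3 of 3 Slits and ROBO1 of 4 Robos passed, and SLIT3 held between 98.4% and 99.2% of the Slit total and ROBO1 between 95.0% and 97.1% of the Robo total. No netrin passed (0 of 4), and the netrins together summed to 6.56, 6.40, 3.03 and 1.77. The UNC5 rows summed to 207, 217, 272 and 322, of which UNC5CL, not a netrin receptor, held at most 0.725. Netrin RNA was thus low beside that of the UNC5 receptors in every library. The plexins summed to 278, 293, 285 and 249.

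**Figure D2:**
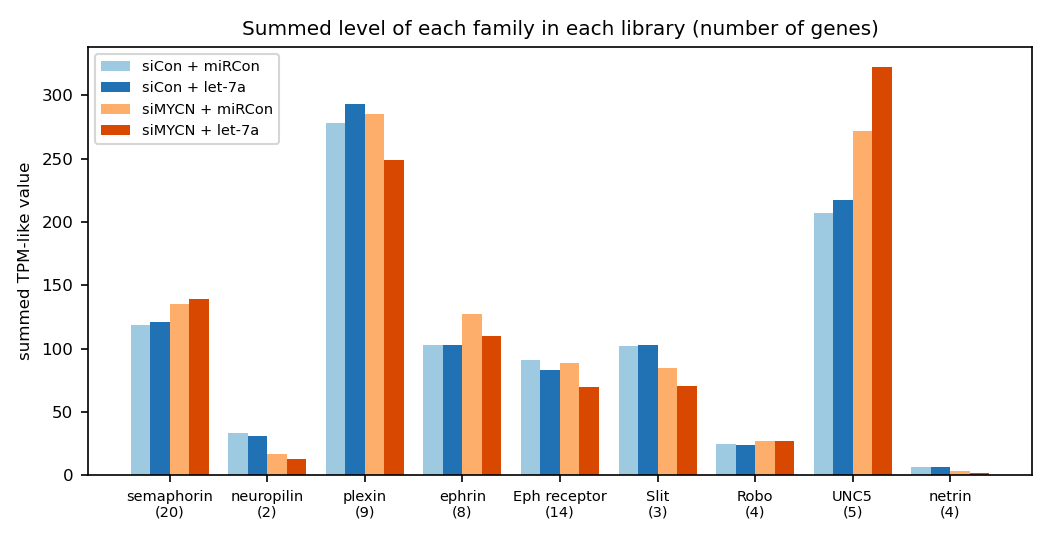
Summed TPM-like value of every gene of each family (number of genes in brackets) in each library, as bars from 0. The UNC5 sum goes from 207 and 217 with siCon to 272 and 322 with siMYCN, while the neuropilin sum goes from 33.1 and 30.9 to 17.0 and 12.7.

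The first question of the design is what siMYCN does, seen once with each mimic in pairs that share no library. The class 3 semaphorin receptor NRP1 and the ligand SEMA3F fell with siMYCN, and UNC5B rose. Differences are given as log2 ratios after 1 is added to each value, so those of weakly expressed genes come out too small. Limma with siRNA and mimic as additive terms, at a Benjamini-Hochberg adjusted p under 0.05 over all 9324 genes, called 1 member higher (3.33% of 30, against 2.07% of all genes) and 2 lower (6.67%, against 1.36%). The error in this fit is the departure of the 4 libraries from additivity, with 1 residual degree of freedom, moderated toward other genes. By size alone, 3 members were higher by 1.5-fold or more with each mimic (10%, against 2.85% of all genes) and 3 were lower (10%, against 1.61%). At an unadjusted p under 0.05 in limma there were 11 higher (36.7%, against 17% of all genes) and 5 lower (16.7%, against 9.4%). Both siMYCN libraries lay above both siCon libraries for 14 members (46.7%, against 35.6%) and below them for 7 (23.3%, against 21.1%), the latter close to the share of all genes. The median siMYCN effect was 0.17 over the 30 members, with 18 above 0, and 0.056 over all genes, of which 58.3% were above 0.

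**Figure D3:**
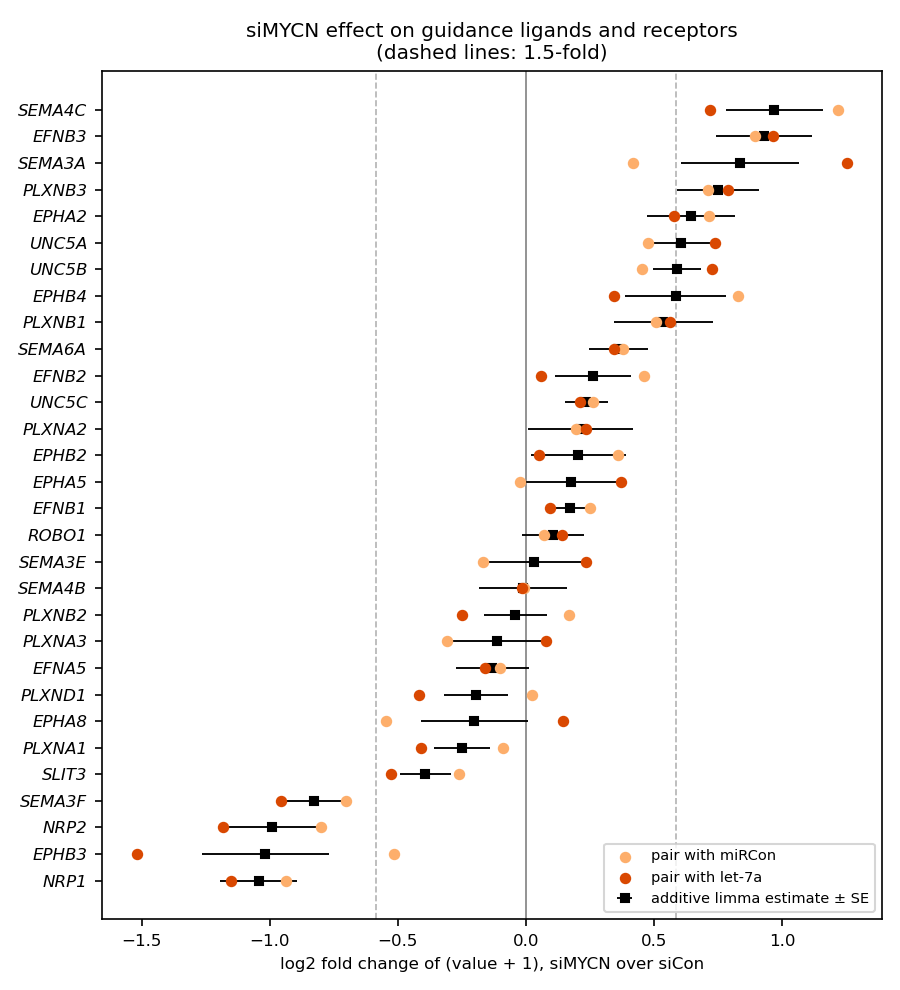
log2 fold change of siMYCN over siCon for each of the 30 genes: the pair with miRCon and the pair with let-7a as coloured points, the additive limma estimate with its SE as a black square and bar. NRP1, NRP2 and SEMA3F lie beyond 1.5-fold (dashed) on the lower side in both pairs, and SEMA4C, EFNB3 and PLXNB3 on the higher side.

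Neuropilins, the binding receptors of class 3 semaphorins, were lower with siMYCN as a pair. NRP1, which binds SEMA3A and also acts as a co-receptor for VEGF, was at 22.1, 21.9, 11.0 and 9.33. Its siCon libraries were nearly equal and both lay above its siMYCN libraries. The log2 fold changes were -0.94 with miRCon and -1.15 with let-7a, and -1.04 ± 0.15 over both (SE of the additive model, adjusted p = 0.0410 by limma). NRP1 lies on chr10:33177492-33336262 of GRCh38, on the minus strand. NRP2, which prefers SEMA3F, was at 11.0, 9.0, 5.92 and 3.41. Its log2 fold changes of -0.80 and -1.18 were of like size, but it did not pass (adjusted p = 0.0662 by limma). NRP2 had its lowest level in the library with both treatments.

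Among the semaphorins at this level, SEMA3F fell, while the others were higher or near their siCon level without passing. SEMA3F, a secreted repellent that signals through NRP2, was at 32.7, 34.0, 19.7 and 17.1, with both siMYCN libraries below both siCon libraries. Its log2 fold changes were -0.70 and -0.96, and -0.83 ± 0.13 over both pairs (adjusted p = 0.0457 by limma). It lies on chr3:50155045-50189075, on the plus strand. SEMA3F and the receptor NRP2 that it uses were thus lower in the same libraries. SEMA4C, a membrane semaphorin that binds plexin-B2, was at 7.34, 9.90, 18.4 and 17.0. It had the highest siMYCN effect of the members, 0.97 ± 0.19, with pairs at 1.22 and 0.72 (adjusted p = 0.0595 by limma). SEMA3A, the classical ligand of NRP1, was at 14.1, 9.48, 19.2 and 24.0, so its siMYCN libraries were the higher ones, opposite to its receptor. Its pairs of 0.42 and 1.252 were uneven, with an effect of 0.84 ± 0.23 (adjusted p = 0.0998 by limma). SEMA6A, a membrane semaphorin that binds A-type plexins, was at 25.6, 23.8, 33.5 and 30.5, and SEMA4B differed between siRNAs by less than its SE (-0.011 ± 0.17).

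Plexins, the signalling receptors, mostly stayed near their siCon level. Of the 7 measured, 3 had a siMYCN effect above 0 and 4 below, with a median of -0.041, and no plexin was called (0 of 7) by limma, while 2 (PLXNB1 and PLXNB3) were higher at an unadjusted p under 0.05, which 17% of all genes also were. PLXNB3, a receptor for SEMA5A, was at 6.45, 11.6, 11.2 and 20.9, with pairs of 0.71 and 0.79 (effect 0.75 ± 0.16, adjusted p = 0.0655 by limma). PLXND1, a plexin that can bind SEMA3E without a neuropilin, was at 90.1, 93.0, 91.7 and 69.4, and PLXNB2 was at 73.6, 80.3, 82.8 and 67.4. Both had their lowest value in the library with both treatments and were otherwise within a narrow range. PLXNA1, the co-receptor of neuropilins, was at 76.5, 75.2, 71.8 and 56.4, likewise lowest with both treatments.

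In the ephrin system no gene passed, and receptors and ligands lay on both sides. EPHB3, a receptor of B-type ephrins, was at 39.9, 36.5, 27.6 and 12.1, with both siMYCN libraries below both siCon libraries. Its pairs differed, at -0.52 with miRCon and -1.52 with let-7a, and its effect of -1.02 ± 0.25 did not pass (adjusted p = 0.0798 by limma). As a share of all Eph receptor RNA, EPHB3 went from 43.9% in each siCon library to 31.2% and 17.4%. The ligand EFNB3 was at 5.94, 4.87, 11.9 and 10.5, with pairs of 0.90 and 0.97 that were close to each other (effect 0.93 ± 0.19, adjusted p = 0.0610 by limma). The receptors EPHA2, at 8.53, 6.92, 14.6 and 10.8, and EPHB4, at 8.02, 8.22, 15 and 10.7, were also higher with siMYCN in both pairs and did not pass (adjusted p = 0.0946 and 0.142 by limma). The main ephrin, EFNB1, differed by 0.17 ± 0.098 and EFNB2 by 0.26 ± 0.15. EPHA8 had siMYCN pairs of opposite sign, -0.55 and 0.14, at levels of 16.4, 15.4, 10.9 and 17.1.

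SLIT3 was lower with siMYCN and ROBO1 was close to its siCon level, and neither passed. SLIT3 had log2 fold changes of -0.26 and -0.53, and both its siMYCN libraries lay below its siCon libraries (effect -0.39 ± 0.099, adjusted p = 0.0850 by limma). ROBO1, the Slit receptor, was at 23.9, 23.3, 25.2 and 25.8, a difference of 0.11 ± 0.12 that is within its SE.

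The UNC5 receptors were all on the higher side. UNC5B rose, by 0.46 with miRCon and 0.73 with let-7a on the log2 scale, an effect of 0.59 ± 0.093 (adjusted p = 0.0453 by limma); the levels given above show siMYCN libraries that lie well above the siCon libraries. It lies on chr10:71212570-71302864, on the plus strand, and is known as a p53-induced gene. UNC5A, a relative with the same death domain, was at 27.4, 32.1, 38.6 and 54.2, with pairs of 0.48 and 0.74 (effect 0.61 ± 0.12, adjusted p = 0.0602 by limma). UNC5C was at 73.8, 76.8, 88.8 and 89.0 and had the smallest effect of these, 0.24 ± 0.083 (adjusted p = 0.153 by limma). For each of the 3 receptors, both siMYCN libraries were above both siCon libraries, which also held for 35.6% of all genes. An effect above 0 was found for 58.3% of all genes.

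The calls lie close to the threshold. With limma run without a trend, or with no filter on low values, no member was called (0 of 30 and 0 of 69), while after rescaling by median ratios 4 were called higher and 5 lower. The share of all genes called under these settings was not computed, so the counts cannot be set against it.

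The second question is what the let-7a mimic does, seen once with each siRNA; these comparisons use the same 4 libraries as the siMYCN effect. No member was called by limma (0 higher and 0 lower, as for all genes, where the share is 0%), and the smallest adjusted p of any gene was 0.663. At an unadjusted p under 0.05 there were 2 higher (6.67%, UNC5A and PLXNB3, against 2.77% of all genes) and 1 lower (3.33%, EPHB3, against 4.71%). By size alone, 1 member was higher by 1.5-fold or more with each siRNA (3.33%, against 0.204% of all genes) and 0 were lower, against 0.257%. Both let-7a libraries lay above both miRCon libraries for 4 members (13.3%, against 8.9%) and below for 1 (3.33%, EPHB2, against 16.2%). The median effect was -0.098 over the members and -0.031 over all genes. Of the 30 members 12 were above 0 (40%), close to the 42.3% of all genes. The noradrenergic sum given above was also higher with let-7a at each siRNA, as was that of the epithelial markers (3.14, 4.22, 3.32 and 7.77, with CDH1 and KRT5 listed at 0 in every library) and the Schwann or glial sum. The mesenchymal-like or fibroblast sum was lower with let-7a at each siRNA. The part of these marker sums in the let-7a differences was not tested.

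The 1 member past 1.5-fold was PLXNB3, whose levels, given above, were higher with let-7a at each siRNA, by log2 fold changes of 0.76 and 0.84 (effect 0.80 ± 0.16, unadjusted p = 0.00342 and adjusted p = 0.663 by limma). It holds no seed match and lies on chrX:153764196-153779346, on the plus strand. PLXNA3, a plexin used with NRP2 in SEMA3F signalling, was at 11.9, 14.1, 9.41 and 14.9, with 0.23 and 0.61. SEMA4B was at 8.22, 11.4, 8.17 and 11.3, with 0.43 and 0.42, nearly the same difference in each siRNA state. UNC5A had 0.22 and 0.48 despite its 7mer-m8 match.

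Of the 9 members with a seed match 2 (22.2%) had a let-7a effect above 0, with a median of -0.17. Among the 21 members without one 10 (47.6%) were above 0, with a median of -0.0030, and 42.3% of all tested genes were. The share was not computed for all tested genes with a match, so the members cannot be set against these. With siCon alone 4 of the 9 were above 0 (44.4%, against 46.1% of all genes), close to the share of all genes. With siMYCN 2 were (22.2%, against 43.0%). Of the 3 members with an 8mer, NRP2 was lower with let-7a in both states (-0.27 and -0.65), while PLXND1 (0.044 and -0.40) and SEMA4C (0.39 and -0.11) were lower only beside siMYCN, a difference between states that was not tested. The plexins PLXNB2 (0.12 and -0.29) and PLXNA1 (-0.024 and -0.34), which hold no match, were also lower mainly beside siMYCN. PLXNA3, PLXNB1 and PLXNB3, likewise without a match, were higher with let-7a in both states. EPHB2, a receptor of B-type ephrins with a 7mer-m8 match, was at 9.14, 8.03, 12.0 and 8.35, with -0.17 and -0.48. EPHA2, with a 7mer-A1 match, had -0.27 and -0.40, and SEMA3F (0.053 and -0.20) and PLXNA2 (-0.19 and -0.15) differed little. SEMA3A, also with a 7mer-A1 match, had opposite signs, -0.53 and 0.30. Each of these 9 had an adjusted p over all genes of at least 0.663 in limma.

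**Figure D4:**
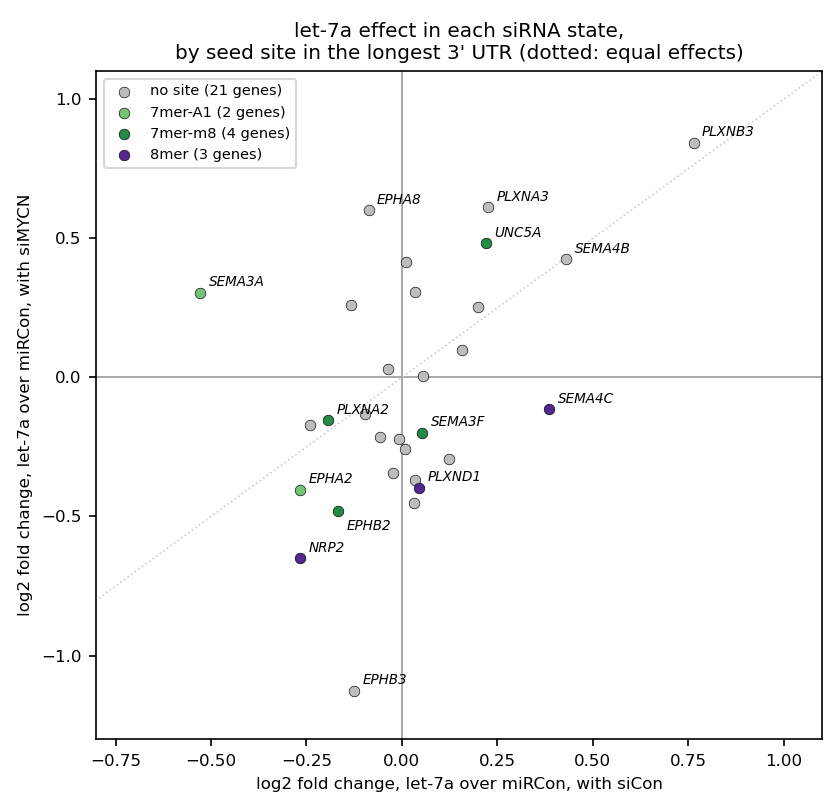
log2 fold change of let-7a over miRCon with siCon (horizontal) and with siMYCN (vertical) for the 30 genes, coloured by their best let-7a seed match. PLXNB3 stands at the upper right without a match, NRP2 with its 8mer at the lower left, and EPHB3 at the bottom with -0.13 and -1.13.

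The 2 treatments together can be set against neither in a single pair of libraries, with no test. PLXNB3 was 3.24 times as high with both (6.45 against 20.9), and EPHB3 was at 0.303 of its level (39.9 against 12.1). NRP2 was at 0.309 and NRP1 at 0.423 of the level without treatment. The let-7a effects differed at least 2-fold between the siRNA states for 1 member, EPHB3 (3.33%, against 1.23% of all genes in that direction), and for 0 in the other direction, against 1.16%. EPHB3 had -0.13 with siCon and -1.13 with siMYCN, a difference of -1.001 that is just at the limit and falls short of it after rescaling or with a pseudocount of 5. It holds no let-7a seed match.

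MYC proteins bind the E-box CACGTG, which reads the same on both strands. The RefSeq promoter windows (GRCh38.p14, 250 bases before to 50 after the start) covered 25 of the 30 members, and 2 of them (8%), EPHA8 and SEMA3E, held this word, against 10.7% of the 7256 windows of tested genes and 7.43% of all 27305 windows. NRP1 and UNC5B, which limma called with siMYCN, and EFNB3, SEMA3A and SEMA6A had no window and were not searched. SEMA3F, the other member called with siMYCN, was searched and did not hold the word. The word is a description of these letters, not of binding.

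Guidance signals are passed on through co-receptors, collapsin response proteins and enzymes that act on the cytoskeleton, and 50 of 72 such genes outside the families above were at a mean of at least 5. With siMYCN limma called 2 of the 50 higher (4%, against 2.07% of all genes) and 0 lower (against 1.36%), with 9 higher (18%, against 17%) and 4 lower (8%, against 9.4%) at an unadjusted p under 0.05, which is close to the share of all genes. DPYSL3, which relays semaphorin signals to microtubules, rose from 97.2 and 101 to 246 and 287 (effect 1.42 ± 0.078, adjusted p = 0.0174 by limma). RAC1, a GTPase of growth cone extension, rose from 289 and 278 to 368 and 356 (effect 0.35 ± 0.059, adjusted p = 0.0487 by limma). The RAC1 call was lost in 5 of 7 alternative settings (either other pseudocount, no filter, no trend or robust moderation), with an adjusted p in limma between 0.0521 and 0.367 there. CHN1, a RAC1-inactivating protein in ephrin signalling, was at 39.0, 35.9, 53.3 and 55.8 and did not pass (adjusted p = 0.0605 by limma). The collapsin response proteins other than DPYSL3 lay on both sides. CRMP1 (0.40) and DPYSL2 (0.051) had siMYCN effects above 0, and DPYSL4 (-0.25) and DPYSL5 (-0.27) below. The lowest siMYCN effects were those of RRAS, a target of plexins, at -0.64 ± 0.21, the Slit-Robo GTPase activator SRGAP1 at -0.43 ± 0.14 and the RAC1 activator TIAM1 at -0.38 ± 0.12. The median was 0.097 over the list and 0.056 over all genes.

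With let-7a none of the 50 was called (0 in each direction by limma, with 2 higher (4%, against 2.77% of all genes) and 3 lower (6%, against 4.71%) at an unadjusted p under 0.05). RASA1, a RAS inhibitor that binds Eph receptors, was at 6.80, 3.97, 6.23 and 3.44, so both let-7a libraries were below both others. Its log2 fold changes of -0.65 and -0.70 made it the 1 gene of the list past 1.5-fold in both pairs (2%, against 0.257% of all genes in that direction). Both its let-7a values, 3.97 and 3.44, lie under 5, the limit set for the mean. SRGAP2 had -0.42 and -0.44 and the focal adhesion kinase PTK2 -0.47 and -0.38. On the higher side were the adhesion molecule NRCAM (0.54 and 0.27), the neogenin ligand RGMB (0.36 and 0.42) and DPYSL4 (0.13 and 0.47). The list's median let-7a effect was -0.021, near the -0.031 of all genes.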

How the data were processed

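PolyA RNA of 4 libraries, 1 in each of 4 groups, was measured by sequencing. The deposited values are natural logs, a base settled from the values: exp(x) - 1 sums to between 855811 and 862049 per library and base 2 to at most 147588. Per the submitters' processing notes, HISAT 0.1.6, Salmon 0.3.2 and GRCh38 were used, in roles they leave out; annotation and strand setting are not given in the sources used. Reads of overlapping or antisense genes may therefore be mixed.

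Of 19837 rows, 92 spike-in and 11 vector rows were set aside. Groups came from the titles. Genes with a mean of at least 5 entered limma-trend (limma 3.58.1, R 4.3.3) on log2(value + 1), siRNA and mimic additive, with Benjamini-Hochberg adjustment over 9324 genes and 4.30 prior degrees of freedom. P-values assume that the effects add. On simulated data over 9324 genes the let-7a fit recovered 11.9%, 56.7% and 90.9% of genes changed 1.5-, 2- and 4-fold, with 4 false calls. The simulated data were additive, held no siMYCN effect and drew their noise from the variance prior of the same fit. In the real data no gene was called with let-7a, with effects as low as -3.75 on the log2 scale. The recovered shares need not hold there. Symbols of all 69 members matched GENCODE release 29. Python 3.11.15 and pandas 2.3.3 were used.

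The members and gene lists were chosen with earlier results of these data known. Named members were those called or past a fold size, the 4 highest and 4 lowest effects of each treatment, the 2 highest of each family and those with an 8mer or 7mer-m8; EPHB4, PLXNA1, PLXNB1, SEMA3D and SEMA3E were named after their values were seen. The settings varied were the pseudocount (0.1 and 5), the filter (none, or a mean of 20), median-ratio rescaling, limma without a trend or with robust moderation, and other fold sizes.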

Additional observations from a re-analysis of the deposited data

Results flagged for a closer look

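For SEMA3A the let-7a effect had opposite signs in the siRNA states, -0.53 with siCon and 0.30 with siMYCN, a difference of 0.83 on the log2 scale. For EPHA8 the effects were -0.087 and 0.60, a difference of 0.69. Each state holds 1 pair of libraries, so neither difference was tested. All libraries of both genes had values between 9.48 and 24.0.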

How the results depend on the processing

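No paired analysis was possible because each group holds 1 library and the labels carry no replicate numbers. The share of all genes was not computed for the other settings, so the counts below cannot be set against it. With no filter all 69 members entered. Of the members called with siMYCN (3), 1 was called with a pseudocount of 5, 0 with no filter, 9 after median-ratio rescaling and 0 without a trend. The members past 1.5-fold in both pairs with siMYCN (6) became 3 with a pseudocount of 5, 10 with no filter, 1 at a mean of at least 20, 0 at 2-fold and 14 at the smallest fold tried. With let-7a (1) they became 0 with a pseudocount of 5, 2 with no filter, 0 at a mean of at least 20, 0 at 2-fold and 2 at the smallest fold tried. The members with a 2-fold difference between let-7a effects (1) became 0 with a pseudocount of 5, 3 with no filter, 0 after rescaling and 3 at 1.5-fold. Of the signalling list (2 called with siMYCN), 1 was called with either other pseudocount or robust moderation (RAC1 was lost), 0 with no filter or without a trend and 4 at a mean of at least 20. At a mean of at least 20, fewer members could enter (13 of 30); otherwise the cause was not tested. The adjusted p of UNC5B was 0.0503 and that of SEMA3F 0.0504 by limma with a pseudocount of 5. After rescaling, the let-7a effect changed sign for ROBO1 (to 0.030) and CHN1 (to 0.0094), both near 0. Of 480 single-gene values under alternatives, 455 kept their sign and side of the threshold, while 15 lost a call, 8 gained one and 2 changed sign. All 15 losses were among the siMYCN calls of NRP1, SEMA3F, UNC5B, DPYSL3 and RAC1. Most of the 480 values were not called to begin with, and the filter and limma settings leave the sign as it is. The 455 therefore do not measure how stable the calls are.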
